A study of Mus musculus with 209 samples.

Results

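The genes of glycolysis and of the cellular response to low oxygen were followed through 209 libraries of mouse immune cells. The group is a list of 34 gene symbols, with no measured value in its rule, and makes up 34 of the 55011 genes in the table of counts. The list was chosen with earlier results of these data known. Its shares beside those of all genes are therefore a description and not an independent test. It holds glucose transporters (Slc2a1, Slc2a3, Slc2a6), the enzymes from hexokinase (Hk1, Hk2, Hk3) to lactate dehydrogenase (Ldha), the lactate carriers Slc16a1 and Slc16a3, and Pdk1 and Pdk3, kinases that shut off pyruvate dehydrogenase. Pygl (glycogen phosphorylase) and 8 genes tied to hypoxia (Hif1a, Egln3, Bnip3, P4ha1, Vegfa, Adm, Ankrd37, Ndrg1) complete it.

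Libraries came from C57BL/6 mice 5 to 8 weeks old. In the screen, 5 ug of IL1b, IL6 or TNFa in 120 uL of PBS, or PBS alone, was injected into a vein, and 14 cell types were sorted 2 h later as 1000 cells per library. Groups held 4 to 5 PBS libraries and 2 to 3 cytokine libraries, and plasmacytoid dendritic cells had none with IL1b. A second experiment followed TNFa at 2, 4, 8 and 24 h in 2 cell types, with 2 libraries per group and PBS at 24 h only, so the earlier times have no PBS of the same hour. The last experiment compared 1 ng of LPS, the bacterial endotoxin, with PBS in Ly6C+ monocytes (3 libraries each), with no time in its labels. In the text MFpc is peritoneal macrophages, MFrp splenic red pulp macrophages, Mo.6C+ Ly6C+ monocytes, GN neutrophils, MC peritoneal mast cells, DC.8+ and pDC the CD8+ and plasmacytoid dendritic cells, NK natural killer cells, Tgd gamma-delta T cells, T.4 and T.8 the CD4 and CD8 T cells, Treg regulatory T cells, MZB marginal zone B cells and B.fo follicular B cells. Nothing in the labels ties a library to an animal, so replicates may share mice and the tests measure the spread between libraries, which may be partly technical. A whole animal received each cytokine, so direct and secondary responses cannot be told apart in these samples. In bulk samples a smaller share of expressing cells and less RNA per cell cannot be told apart either.

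Library totals ran from 1094567 to 9291121 counts. In 13 of 14 cell types the mean log2 level of the sorted type's markers was higher in every library than in any library of another type. CD4 T cells were the exception, with 7.676 in their lowest library. The highest library of another type, at 8.178, was of regulatory T cells, which also carry these markers. For 158 screen libraries the title gives spleen and the tissue field gives peritoneal cavity, and here the title was used. Levels are given as CPM, the count per 1000000 counts of the scaled library. Differences are log2 fold changes with their standard error (SE) from edgeR's quasi-likelihood test, whose p-values were adjusted over all genes tested in that fit. A member is said to have been raised, to have risen or to have fallen only where this adjusted p was under 0.05.

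Glycolysis splits glucose into pyruvate, which cells either oxidise in mitochondria or reduce to lactate. Hexokinase traps glucose in the cell, phosphofructokinase (Pfkl, Pfkp) commits it to breakdown, and the Pfkfb enzymes set the level of the sugar phosphate that switches phosphofructokinase on. Hif1a encodes the oxygen-regulated subunit of the transcription factor HIF-1, which is degraded in the presence of oxygen through hydroxylation by the Egln enzymes, and many glycolysis genes are known HIF-1 targets. In activated macrophages and neutrophils a high rate of glycolysis is a textbook feature, and Hif1a transcription is also known to be driven by NF-kB, the factor that TNFa and IL1b signal through.

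HIF-1 binds DNA at a short core, ACGTG or GCGTG. The RefSeq promoter windows (300 bases, from 250 before to 50 after the start site, mm10/GRCm38.p6) were available for 32 of the 34 members. A match is only a match of letters and not a binding site. With the first listed window of each gene, at least 1 core on either strand was present in 25 of 32 members (78.1%) and in 43.8% of all 27025 genes' windows. Hk1, Aldoa, Pkm and Vegfa had no core in that window and had one in a later start site's window. Separately, ACGTG was in 19.7% of all windows and 56.2% of the members', and GCGTG in 32.5% and 56.2%. The windows of all genes were not matched to the members' in base content or in expression, so these shares are a description only. A longer NF-kB consensus was in 4.35% of all windows and in 1 member, Vegfa. The windows of 4 members that fell at 2 h and rose at 8 h of TNFa in peritoneal macrophages (Bnip3, Pdk1, Egln3 and Ankrd37, described below) and of Slc2a6, which was highest at 2 h, are shown 5′ to 3′ on the gene's strand, with capitals for the cores on either strand (CACGT and CACGC are the reverse strand). For Pdk1 the first of 2 listed windows is shown, and the second (chr2:71874654-71874953) held 0 cores.
Bnip3, chr7:138909457-138909756, minus strand, 5 cores: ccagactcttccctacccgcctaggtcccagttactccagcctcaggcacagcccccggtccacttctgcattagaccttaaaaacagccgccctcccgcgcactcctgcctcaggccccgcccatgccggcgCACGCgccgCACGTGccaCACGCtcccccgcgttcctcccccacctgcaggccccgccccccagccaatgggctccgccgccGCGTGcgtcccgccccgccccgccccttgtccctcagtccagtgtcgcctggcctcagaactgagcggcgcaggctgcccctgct
Pdk1, chr2:71872974-71873273, plus strand, 2 cores: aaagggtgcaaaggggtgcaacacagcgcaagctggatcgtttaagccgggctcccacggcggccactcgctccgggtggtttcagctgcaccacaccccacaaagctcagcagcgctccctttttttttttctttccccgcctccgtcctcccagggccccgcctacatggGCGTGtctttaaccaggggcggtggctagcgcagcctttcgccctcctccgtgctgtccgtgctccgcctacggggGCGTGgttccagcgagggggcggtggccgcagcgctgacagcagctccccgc
Egln3, chr12:54203825-54204124, minus strand, 1 core: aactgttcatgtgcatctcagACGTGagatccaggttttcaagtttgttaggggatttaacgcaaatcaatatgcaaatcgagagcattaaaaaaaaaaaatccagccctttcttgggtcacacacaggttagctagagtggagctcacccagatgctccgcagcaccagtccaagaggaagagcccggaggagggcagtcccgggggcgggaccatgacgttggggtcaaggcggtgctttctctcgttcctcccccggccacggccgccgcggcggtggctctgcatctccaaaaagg
Ankrd37, chr8:45999801-46000100, minus strand, 4 cores: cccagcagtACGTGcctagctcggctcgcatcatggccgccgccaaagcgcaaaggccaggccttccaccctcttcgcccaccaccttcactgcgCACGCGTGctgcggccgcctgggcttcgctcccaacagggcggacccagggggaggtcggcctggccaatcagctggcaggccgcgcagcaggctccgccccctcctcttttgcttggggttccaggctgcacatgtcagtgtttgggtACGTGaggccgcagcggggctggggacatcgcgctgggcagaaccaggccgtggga
Slc2a6, chr2:27027949-27028248, minus strand, 4 cores: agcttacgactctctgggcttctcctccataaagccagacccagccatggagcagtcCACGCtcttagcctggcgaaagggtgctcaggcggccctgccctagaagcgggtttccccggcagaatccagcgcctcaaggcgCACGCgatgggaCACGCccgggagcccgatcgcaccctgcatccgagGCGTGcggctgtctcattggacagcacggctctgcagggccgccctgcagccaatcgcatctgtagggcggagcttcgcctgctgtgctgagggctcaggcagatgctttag

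With PBS alone, neutrophils stood apart from every other type for many members. For 11 members the lowest neutrophil library was above the highest library of any other type: Slc2a3, Slc2a6, Hk3, Gpi1, Pfkfb4, Aldoa, Pkm, Slc16a3, Pygl, Egln3 and Bnip3. Peritoneal macrophages led in the same way for 4 members (Pfkl, Tpi1, Gapdh, Eno1), mast cells for 3 (Eno2, Ldha, Hif1a), NK cells for Pfkp and CD4 T cells for Pdk1. The share of all genes that separate in this way was not computed, so these counts are not shown to be particular to the members. Scaled over all screen libraries, Slc2a3, a high-affinity glucose transporter, had 1630 ± 202 CPM (SD, n = 5) in neutrophils. Mast cells, the next type, had 168 CPM. In peritoneal macrophages Slc2a3 was at 0.249 CPM, so the transporters were divided between cell types. For the responses below, each cell type's libraries were scaled on their own. There the same neutrophil libraries read 708.6 to 940.1 CPM for Slc2a3. Per kilobase of exon, neutrophils had 353 CPM of Slc2a6, 225 of Slc2a3 and 25.2 of Slc2a1, while peritoneal macrophages had 86.9 of Slc2a6, 0.0344 of Slc2a3 and 3.38 of Slc2a1.

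Among the hexokinases the myeloid gene Hk3 led in neutrophils per kilobase (314 CPM, against 12.3 for Hk1 and 20.4 for Hk2). Hk1 was close to the only hexokinase in CD4 T cells (15.2 CPM per kilobase, with Hk3 at 0.105). The liver-type phosphofructokinase Pfkl marked peritoneal macrophages (707 ± 21.4 CPM, against 130 CPM in CD8+ dendritic cells, the next type). Pfkp, the platelet-type form, was highest in NK cells (525.8 ± 40.4 CPM). Pdk1 was highest in CD4 T cells (408 ± 56.4 CPM), followed by CD8 T cells (199.7 CPM), and lowest in neutrophils (11.6 CPM). Hif1a itself varied less: from 52.1 CPM in NK cells to 256 ± 20.2 CPM in mast cells, and between these, from gamma-delta T cells (75.2 CPM) up to regulatory T cells (157 CPM), the libraries of neighbouring types overlapped at every step.

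**Figure D1:**
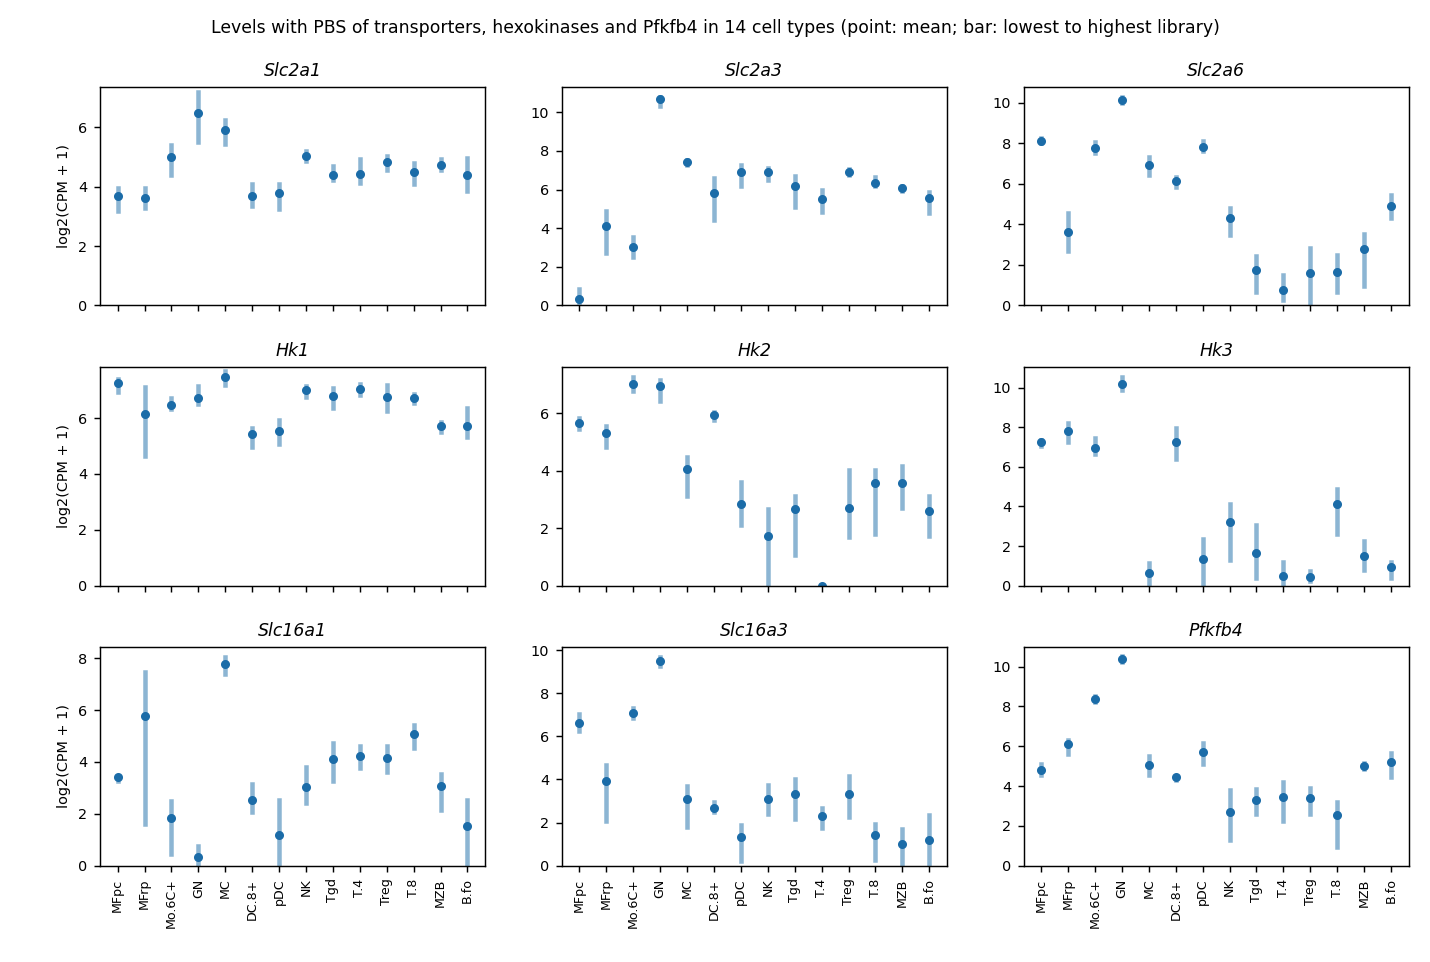
Levels of 9 members with PBS in the 14 cell types, as log2(CPM + 1), with the point at the mean and the bar from the lowest to the highest library. Slc2a3, Slc2a6, Hk3, Slc16a3 and Pfkfb4 are highest in neutrophils (GN), and Slc16a1 spreads widely in red pulp macrophages (MFrp).

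The cytokine screen asked which cells respond to each cytokine. Over 13 cell types, IL1b raised members in 54 of 397 tests (13.6%) and lowered them in 23 (5.79%), against 5.76% and 4.26% of tests of all genes. TNFa raised members in 63 of 427 tests (14.8%) and lowered them in 39 (9.13%), against 8.26% and 7.95%. IL6 raised members in 11 of 427 tests (2.58%) and lowered them in 4 (0.937%), against 1.46% and 0.95%. These calls fell mostly in macrophages, monocytes and neutrophils, the cell types where most calls of all genes also fell. Of 34 members, 32 were called in at least 1 of 50 comparisons with a control. The share of all genes called at least once was not computed. In peritoneal macrophages with TNFa alone 6448 of 12079 genes passed, so this count is not shown to be particular to the members. Aldoc was never called, and Vegfa, an angiogenic growth factor and HIF target, had too few counts to be tested in any comparison with PBS, and did not pass in the fit of all screen libraries.

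**Figure D2:**
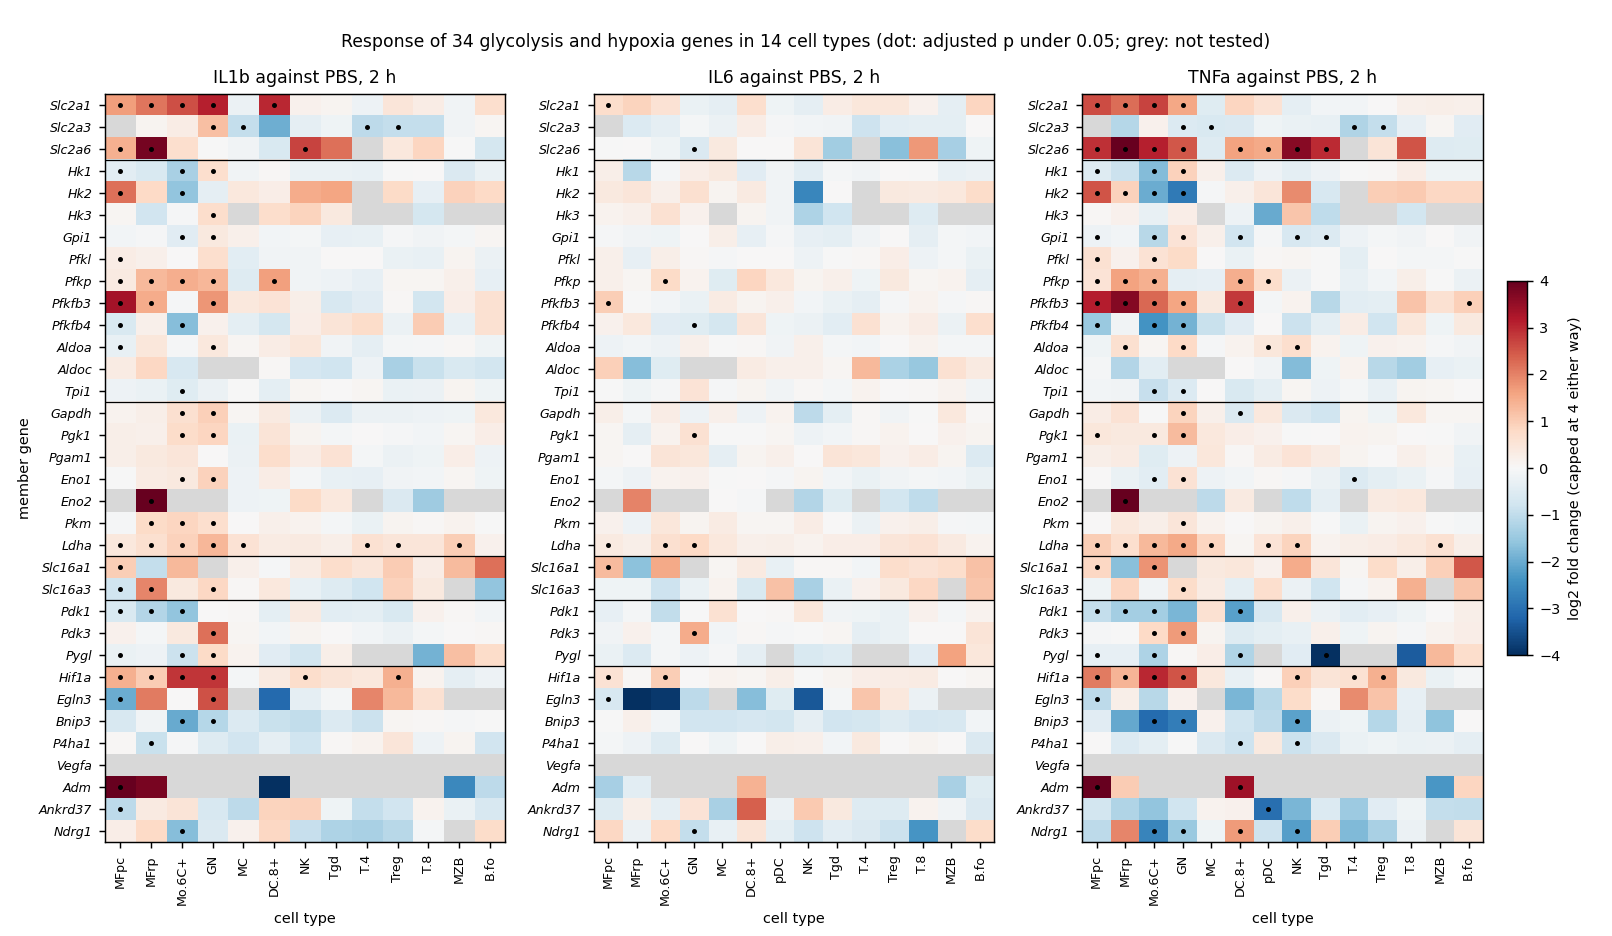
Log2 fold change of each member (rows, grouped by role) against PBS in each cell type (columns) for IL1b, IL6 and TNFa at 2 h, with a dot where the adjusted p was under 0.05 and grey where the member was not tested. Dots gather in the 4 columns at the left of the IL1b and TNFa panels, and the IL6 panel holds 15 in all. Most calls of all genes fell in the same 4 cell types.

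In peritoneal macrophages the members changed in both directions. IL1b raised 10 and lowered 8 of 31 tested members, where 20.7% of all genes tested were raised and 16.6% lowered. TNFa raised 11 and lowered 6 (26.6% and 26.7% of all genes), and IL6 raised 5 and lowered 1 (9.16% and 6.17%). The members' median log2 change was 0.13 with IL1b, 0.09 with IL6 and 0.02 with TNFa, and that of all genes was -0.01, -0.02 and -0.05. With both directions counted together, the TNFa share was near that of all genes. Neutrophil markers summed to 226.5 to 351.1 CPM with PBS, 326 to 437 with IL1b and 454.7 to 514.4 with TNFa, and their part in these results was not tested.

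In Ly6C+ monocytes IL1b raised 8 and lowered 9 of 31 members (19.4% and 17.6% of all genes), with a median of 0.02 (-0.04 for all genes). TNFa raised 10 and lowered 10 (24.3% and 24.4% of all genes), with a median of -0.31 against -0.04. Monocytes with either cytokine also carried more RNA of a list of red pulp macrophage markers: its sum was 383.8 to 854 CPM with PBS, 3886 to 5133 with IL1b and 7057 to 9868 with TNFa. The part of these markers' source in the monocyte results was not tested.

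In neutrophils most of the calls with IL1b were rises. IL1b raised 18 and lowered 1 of 29 tested members, against 12.9% and 9.44% of all genes, with a median of 0.69 (-0.05 for all genes). TNFa raised 14 and lowered 6 (18.5% and 19% of all genes), with a median of 0.48 against -0.21. IL6 raised 3 and lowered 3 (5.23% and 4.28% of all genes). This IL6 count of 6 was 3 without IL6 library 1, 2 without IL6 library 2 and 3 without IL6 library 3. The sum of neutrophil markers rose with the same treatments, from 42682 to 55874 CPM with PBS to 117672 to 121727 with IL1b and 137125 to 157110 with TNFa. Monocyte markers summed to 948.8 to 2857 CPM with PBS, 2284 to 4135 with IL1b and 4282 to 4848 with TNFa, and the part of either list in the members' response was not tested.

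In red pulp macrophages IL1b raised 9 and lowered 2 of 33 tested members (6.64% and 4.22% of all genes, medians 0.37 and -0.05). TNFa raised 9 and lowered 1 (11.5% and 10.1% of all genes, medians 0.24 and -0.14). Erythroid RNA varied widely in these libraries, with a marker sum of 1165 to 48903 CPM with PBS, 1642 to 6494 with IL1b and 1052 to 11096 with TNFa. Without the libraries high in it, IL1b called 5 members in place of 11, and without IL1b library 3 it called 6. Neutrophil markers summed to 68.51 to 172.5 CPM with PBS, 279.2 to 307.6 with IL1b and 169.9 to 365.2 with TNFa. Their part in these results was not tested. Slc16a1, a lactate carrier, was at 159 and 46.9 CPM in 2 PBS libraries and at 1.88 to 26 CPM in the others.

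Outside these 4 types the calls were fewer. TNFa raised 5 and lowered 5 of 33 members in CD8+ dendritic cells (8.05% and 7.48% of all genes, median -0.12 against -0.02), a count that was 6 without TNFa library 2 and 6 without the libraries that carry NK cell markers. It raised 4 and lowered 4 of 32 members in NK cells (7.65% and 7.93%, median -0.13 against -0.04). In plasmacytoid dendritic cells it raised 4 and lowered 1 of 30 (7.23% and 7.18%, median 0.04 against -0.03). In every other combination of cell type and cytokine fewer than 5 members passed, and no member passed in CD8 T cells.

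Among the glucose transporters Slc2a1, the basal transporter GLUT1, was raised by IL1b in 5 cell types and by TNFa in 4. In peritoneal macrophages it had 8.01, 9.69, 5.77, 10.3 and 7.86 CPM with PBS, 28.3, 25.5 and 26.1 with IL1b, 12.7, 16.3 and 11.7 with IL6 and 43.8, 52.0 and 56.7 with TNFa. No library of the 3 cytokine groups overlapped the PBS libraries, and the TNFa libraries were the highest. The log2 change was 1.67 ± 0.18 (SE) with IL1b (adjusted p = 2.5e-07) and 2.60 ± 0.17 with TNFa (1.15e-10). With IL6 it was 0.70 ± 0.18 (0.012), a call lost without IL6 library 2 (0.101).

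Neutrophils showed the opposite order of the cytokines for Slc2a1. Their libraries held 23.7 to 80.1 CPM (median 54.9) with PBS, 293, 485 and 466 with IL1b, and 151, 129 and 141 with TNFa. IL1b and TNFa libraries did not overlap each other or the PBS libraries. The rise was 3.11 ± 0.31 with IL1b and 1.54 ± 0.31 with TNFa, and the difference between the cytokines, 1.56 ± 0.35 in favour of IL1b, passed the test (adjusted p = 0.00378), as did the difference of -0.93 ± 0.19 in peritoneal macrophages (0.00157). CD8+ dendritic cells responded to IL1b (87.3 and 82.4 CPM, against 8.06, 9.64, 10 and 14 with PBS), at 3.02 ± 0.37, and the libraries with TNFa lay at 16.7, 22.8 and 17.6 CPM. There too IL1b exceeded TNFa, by 2.15 ± 0.40 (0.00662).

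Slc2a6, a transporter of the lysosomal membrane, was raised by TNFa in 8 of the 14 cell types and by IL1b in 3. Peritoneal macrophages had 182 to 214 CPM with PBS (median 189), 559, 487 and 546 with IL1b, 186, 215 and 178 with IL6, and 1519, 1464 and 1431 with TNFa. Ly6C+ monocytes had 146 to 215 CPM with PBS (median 158), 470, 199 and 157 with IL1b and 1526, 1481 and 1473 with TNFa. Neutrophils stood at 3434, 3380 and 3395 CPM with TNFa, and both their 555 to 681 CPM with PBS and their 708, 577 and 512 with IL1b lay far below. TNFa libraries were thus close to each other and above every PBS library in the 3 types, at 2.91 ± 0.09, 3.10 ± 0.26 and 2.48 ± 0.12. The log2 difference of IL1b minus TNFa was -1.47 ± 0.10 in peritoneal macrophages (adjusted p = 5.03e-09), -2.44 ± 0.31 in monocytes (5.93e-05) and -2.51 ± 0.14 in neutrophils (4.25e-09).

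Cells with little Slc2a6 to begin with responded as well. NK cells had 11.4 to 31.6 CPM with PBS (median 20.7), 187, 113 and 119 with IL1b and 262, 240 and 307 with TNFa, a change of 2.69 ± 0.23 and 3.64 ± 0.24. In red pulp macrophages, PBS libraries held 5.09 to 20.6 CPM, those with IL1b 249, 119 and 67.2, and those with TNFa 294, 352 and 380. These changes were 3.81 ± 0.45 and 5.05 ± 0.46, the last being the largest called change of Slc2a6. Gamma-delta T cells had 0.762 to 5.61 CPM with PBS and 28.2, 19.7 and 26.2 with TNFa (3.00 ± 0.63, adjusted p = 0.00829).

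Slc2a3 was lowered by IL1b and by TNFa in mast cells, regulatory T cells and CD4 T cells, and raised by IL1b in neutrophils. Regulatory T cells had 135 to 167 CPM with PBS, 85.6, 70.5 and 79.2 with IL1b and 83.6, 55.4 and 93.2 with TNFa, so neither cytokine overlapped PBS (-0.94 ± 0.17 and -0.96 ± 0.17). CD4 T cells moved alike (-1.05 ± 0.25 with IL1b and -1.20 ± 0.26 with TNFa), but the IL1b call was lost without IL1b library 2 (0.0795) or 3 and the TNFa call without TNFa library 1 (0.0529). In mast cells the IL1b change of -0.96 ± 0.19 was lost without IL1b library 3 (0.202), and the TNFa change of -0.60 ± 0.16 in 6 of 7 such fits (adjusted p up to 0.269). Neutrophil libraries read 891, 902, 939, 940 and 709 CPM with PBS, 1808, 2136 and 2071 with IL1b and 602, 670 and 544 with TNFa. IL1b and TNFa lay on opposite sides of the PBS libraries, at 1.19 ± 0.11 and -0.53 ± 0.12, and differed by 1.73 ± 0.13 (adjusted p = 7.92e-08).

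At the first step of glycolysis, Hk2, the inducible hexokinase, moved in opposite directions with TNFa in peritoneal macrophages and in monocytes and neutrophils. Peritoneal macrophages held 30.3 to 39.3 CPM with PBS (median 34), 182, 160 and 139 with IL1b and 143, 221 and 232 with TNFa. Ly6C+ monocytes held 86.1 to 122 CPM with PBS, 15.2, 38.5 and 50.2 with IL1b and 13.6, 23.5 and 41.6 with TNFa. In neutrophils the PBS libraries ranged from 46.8 to 78.1 CPM and TNFa gave 15.3, 5.24 and 6.76. Neither pair of groups overlapped in any of these. The changes with TNFa were 2.52 ± 0.14 in macrophages (adjusted p = 1.03e-11), -1.99 ± 0.34 in monocytes (0.000159) and -2.82 ± 0.35 in neutrophils (6.92e-06). Dependence of the TNFa response on cell type, tested over all screen libraries, had an adjusted p of 3.36e-10 for Hk2. IL1b changed Hk2 by 2.21 ± 0.14 in macrophages and -1.57 ± 0.33 in monocytes, and its test of dependence on cell type gave 0.000264.

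Hk1, the constitutive hexokinase, was lowered in monocytes and raised in neutrophils. With TNFa it went from 62.7 to 84.4 CPM to 18.2, 20.2 and 25.1 CPM in monocytes (-1.73 ± 0.18) and from 49.4 to 71.0 CPM to 90.5, 117 and 115 in neutrophils (0.94 ± 0.19). The 2 groups did not overlap in either type. In peritoneal macrophages it was lowered by TNFa (-0.51 ± 0.13). The test of dependence on cell type gave an adjusted p of 0.000118 with TNFa and 0.0209 with IL1b. Gpi1, which converts glucose 6-phosphate to fructose 6-phosphate, followed the same division with TNFa: -1.10 ± 0.13 in monocytes, -0.65 ± 0.12 in NK cells, -0.77 ± 0.16 in CD8+ dendritic cells and 0.55 ± 0.13 in neutrophils (dependence on cell type 7.38e-15). Hk3 passed in neutrophils with IL1b (0.71 ± 0.13) and in no other screen comparison with PBS.

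**Figure D3:**
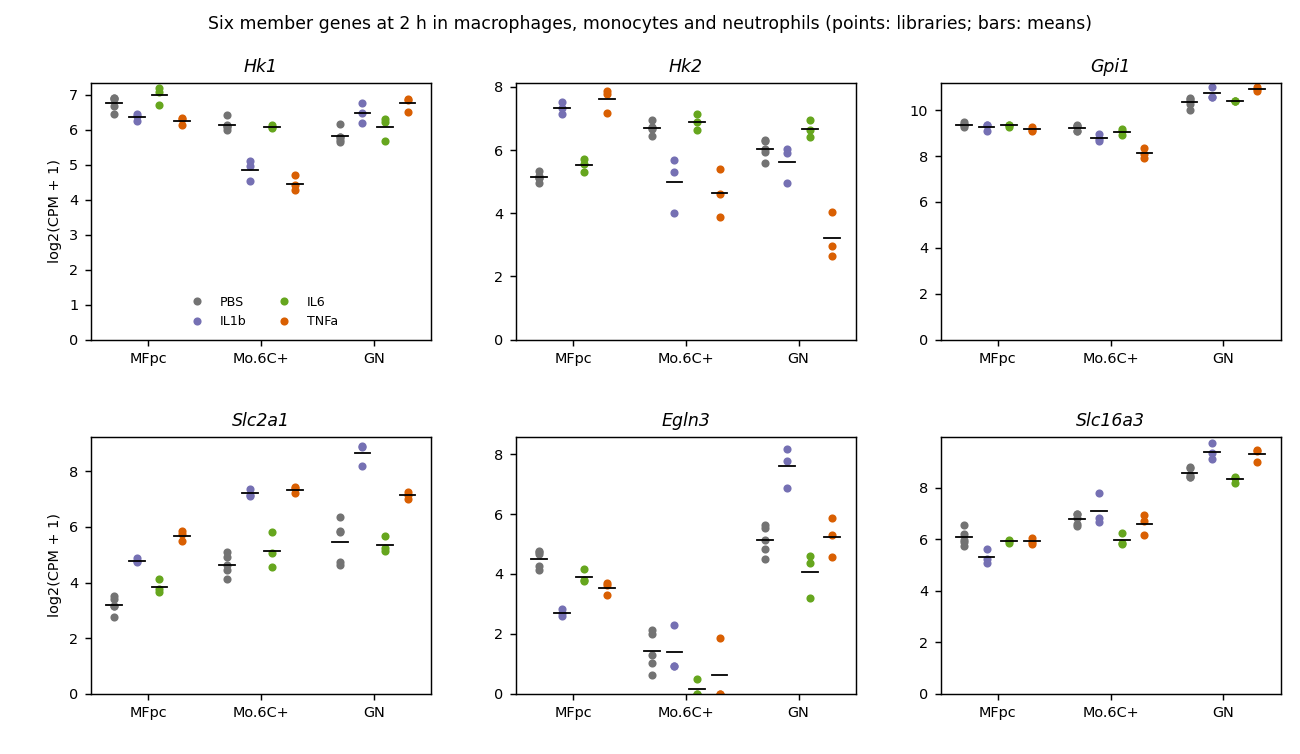
Levels of Hk1, Hk2, Gpi1, Slc2a1, Egln3 and Slc16a3 in peritoneal macrophages (MFpc), Ly6C+ monocytes (Mo.6C+) and neutrophils (GN), as log2(CPM + 1), with a point per library and a bar at the mean. With TNFa, Hk2 lies above PBS in macrophages and below PBS in monocytes and neutrophils, and with IL1b Egln3 lies below PBS in macrophages and above PBS in neutrophils.

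Transcripts of the 2 Pfkfb genes moved in opposite directions with TNFa in peritoneal macrophages, monocytes and neutrophils. Pfkfb3 encodes the form with the highest kinase activity, which raises the activator of phosphofructokinase. In peritoneal macrophages it had 20 to 33.5 CPM with PBS (median 31.7), 364, 217 and 283 with IL1b, 48.0, 51.3 and 71.9 with IL6 and 188, 226 and 340 with TNFa. All 3 cytokine groups lay above PBS, at 3.33 ± 0.20 (adjusted p = 5.33e-11), 0.99 ± 0.20 (0.0018) and 3.13 ± 0.20 (5.3e-11). Red pulp macrophages rose from 20.9 to 46.8 CPM with PBS to 340, 364 and 587 with TNFa (3.66 ± 0.31), while IL1b gave 61.4, 73.4 and 149 (1.47 ± 0.30, lost without IL1b library 3, adjusted p = 0.0628). TNFa also raised it in monocytes (2.31 ± 0.26), neutrophils (1.57 ± 0.22) and CD8+ dendritic cells (2.84 ± 0.24), where PBS libraries held 164 to 274 CPM and those with TNFa 1749, 1470 and 1208. Monocytes with IL1b, at 67.6, 26.7 and 33.8 CPM, overlapped their PBS libraries (31.1 to 58.6 CPM), and TNFa exceeded IL1b there (a difference, IL1b minus TNFa, of -2.37 ± 0.32, 0.0001).

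Pfkfb4, a paralog of Pfkfb3, was lowered in each of its 12 calls against PBS. Monocytes had 243 to 299 CPM with PBS, 67.6, 82.8 and 99.3 with IL1b, 192, 204 and 193 with IL6 and 57.4, 61.2 and 35.6 with TNFa. Every cytokine library lay below the PBS libraries, though the IL6 change did not pass the test. The changes were -1.69 ± 0.17 with IL1b and -2.38 ± 0.18 with TNFa (adjusted p = 2.25e-08). Neutrophils, which hold the most Pfkfb4, kept 816, 808 and 795 CPM with IL1b (668 to 765 with PBS) but had 206, 161 and 211 with TNFa (-1.90 ± 0.14, 7.95e-09). IL1b and TNFa differed by 2.06 ± 0.15 there (3.3e-08). Pfkp was raised by IL1b in 5 types and by TNFa in 5, in monocytes from 173 to 185 CPM with PBS to 460, 505 and 504 with IL1b, 294, 294 and 329 with IL6 and 446, 471 and 521 with TNFa. These 3 groups stood clear of PBS, at 1.45 ± 0.10, 0.77 ± 0.10 and 1.42 ± 0.10. In red pulp macrophages the IL1b change of Pfkp was 1.30 ± 0.27 (adjusted p = 0.00395, and 0.0611 without the libraries high in erythroid RNA), and in CD8+ dendritic cells it was 1.64 ± 0.22.

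Ldha, which reduces pyruvate to lactate, was the member raised most often, in 27 comparisons. IL1b raised it in 8 cell types and TNFa in 8. Peritoneal macrophages had 1121 to 1321 CPM with PBS, 1640, 1490 and 1733 with IL1b, 1525, 1598 and 1474 with IL6 and 2515, 2398 and 2198 with TNFa (0.43 ± 0.08, 0.35 ± 0.08 and 0.97 ± 0.08). Neutrophils had 370 to 611 CPM with PBS, 970, 1635 and 1309 with IL1b, 906, 959 and 831 with IL6 and 1373, 1427 and 1633 with TNFa (1.33 ± 0.17, 0.79 ± 0.17 and 1.51 ± 0.17). PBS libraries were below all cytokine libraries in both types.

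Ldha also rose in lymphocytes that showed few other calls. Marginal zone B cells had 447 to 571 CPM with PBS and 789, 1065 and 1123 with IL1b (0.97 ± 0.11, adjusted p = 1.54e-05), against 0.60 ± 0.11 with TNFa. CD4 T cells changed by 0.61 ± 0.09 with IL1b (6.05e-05). In regulatory T cells the change of 0.50 ± 0.13 was lost in 7 of 8 fits that left out 1 library (adjusted p up to 0.141). Mast cells rose by 0.85 ± 0.09 with TNFa, and by 0.59 ± 0.10 with IL1b, the latter lost without IL1b library 3 (0.0572).

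Neutrophils with IL1b also raised Gapdh (0.94 ± 0.19), Eno1 (0.93 ± 0.13), Pgk1 (0.85 ± 0.18) and Pkm (0.69 ± 0.10), the enzymes that carry 3-carbon sugars to pyruvate. Eno1 went from 338 to 413 CPM with PBS to 590, 845 and 789 with IL1b, with no overlap. With TNFa Gapdh was raised by 0.88 ± 0.19, Eno1 by 0.57 ± 0.13, Pgk1 by 1.27 ± 0.18 and Pkm by 0.48 ± 0.10. Counts of Pgk1, Pgam1, Eno1, Pkm and Gapdh are uncertain, because 53.9%, 36.2%, 26%, 25.8% and 24.7% of the 50-base windows of their exons also occur in other annotated genes, mostly processed copies, and how such reads were counted is not given in the sources used here. In monocytes with TNFa Tpi1, which interconverts the triose phosphates, fell from 209 to 238 CPM to 118, 101 and 125 (-0.93 ± 0.12), and Ldha rose (1.28 ± 0.12). Aldoa, an aldolase, was raised by TNFa in neutrophils (0.80 ± 0.12) and NK cells (0.67 ± 0.12) and lowered by IL1b in peritoneal macrophages (-0.31 ± 0.08).

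Eno2, the neuronal enolase, was called in 1 cell type of the screen. Red pulp macrophages held 3 counts in 5 PBS libraries (0.193, 0, 0.184, 0 and 0.268 CPM), against 18.5, 23.7 and 38.4 CPM with IL1b and 46.7, 41.5 and 41.8 with TNFa. The ratio of counts per scaled library was 195 with IL1b (counting interval 66 to 948) and 319 with TNFa (108 to 1.55e+03). This interval covers the error of counting reads and leaves out the spread between libraries. Eno2 passed the filter on low counts here only through the IL1b and TNFa libraries. PBS and cytokine groups were far apart, and IL6 left it at 0.339, 0.772 and 0.797 CPM.

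Genes that decide the fate of pyruvate moved in both directions. Pdk1 encodes a kinase that shuts off pyruvate dehydrogenase. It was lowered in peritoneal macrophages, where PBS libraries held 57.2 to 74.0 CPM (median 65.8), IL1b libraries 46.0, 35.6 and 47.2, and TNFa libraries 39.2, 27.8 and 35.6 (-0.61 ± 0.15 and -0.94 ± 0.15). CD8+ dendritic cells fell from 31.7 to 51.0 CPM to 7.95, 9.86 and 9.25 with TNFa (-2.16 ± 0.33, adjusted p = 0.00032), and monocytes by -1.58 ± 0.32 with IL1b and -1.35 ± 0.31 with TNFa. In red pulp macrophages the change was -1.36 ± 0.33 with TNFa (0.00805, and 0.0699 without the libraries high in erythroid RNA). Pdk3, a related kinase, instead rose in neutrophils with each cytokine, from 7.29 to 34.4 CPM (median 15.6) to 69.6, 95.2 and 90.8 with IL1b, 56.1, 43.5 and 55.9 with IL6 and 49.1, 74.1 and 59.3 with TNFa (2.19 ± 0.33, 1.47 ± 0.33 and 1.70 ± 0.33). All 9 cytokine libraries were above the 5 PBS libraries.

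The lactate exporter Slc16a3 was raised in neutrophils by IL1b (855, 650 and 551 CPM, against 340 to 443 with PBS, 0.83 ± 0.15) and TNFa (0.72 ± 0.15) and lowered by IL1b in peritoneal macrophages (-0.78 ± 0.16). Its IL1b response depended on cell type (adjusted p = 0.00246). Slc16a1, the other lactate carrier, rose in peritoneal macrophages with each cytokine: from 6.01 to 7.14 CPM to 15.3, 14.8 and 10.5 with IL1b, 18.9, 16.8 and 12.8 with IL6 and 9.11, 11.1 and 16.1 with TNFa. It was the member with the largest rise there with IL6 (1.25 ± 0.21, adjusted p = 0.000329). Pygl, which releases glucose units from glycogen, was lowered in monocytes (-0.87 ± 0.16 with IL1b and -1.24 ± 0.17 with TNFa) and raised in neutrophils with IL1b, from 2151 to 2467 CPM to 4132, 3709 and 3899 (0.77 ± 0.10). Gamma-delta T cells gave its largest change, from 16.1 to 47.6 CPM with PBS to 0.214, 4.56 and 0 with TNFa (-4.01 ± 0.67, 0.0012).

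Of the hypoxia genes, Hif1a was raised by IL1b in 6 types and by TNFa in 7. Monocytes had 78.0 to 119 CPM with PBS, 482, 792 and 907 with IL1b, 124, 236 and 236 with IL6 and 910, 775 and 740 with TNFa. Neutrophils had 59.3 to 70.4 CPM with PBS, 406, 482 and 562 with IL1b, 60.2, 67.2 and 75.5 with IL6 and 367, 385 and 404 with TNFa. Monocytes with IL6 were above PBS and neutrophils with IL6 overlapped it. Monocytes changed by 2.85 ± 0.22 and 3.00 ± 0.22 with IL1b and TNFa, and neutrophils by 2.85 ± 0.13 (adjusted p = 2.5e-10) and 2.52 ± 0.13. The IL6 change in monocytes, 0.98 ± 0.22, was lost without IL6 library 2 or 3 (0.0942). Regulatory T cells rose by 1.42 ± 0.20 with either cytokine, from 136 to 233 CPM to 339, 594 and 644 with IL1b and 445, 577 and 557 with TNFa. The test of dependence on cell type gave 2.33e-27 for IL1b and 3.17e-27 for TNFa.

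Bnip3, a mitophagy receptor and HIF target, was lowered in each of its screen calls. Neutrophils had 35.1 to 49.4 CPM with PBS, 16.9, 23.4 and 20.3 with IL1b and 7.92, 3.15 and 8.30 with TNFa. Monocytes had 9.22 to 12.9 CPM with PBS, 4.08, 3.21 and 0.842 with IL1b and 0.957, 1.53 and 1.32 with TNFa. Cytokine libraries lay below PBS in both, and the changes with TNFa were -2.76 ± 0.34 (adjusted p = 4.54e-06) and -3.08 ± 0.47 (4.33e-05). The IL1b change in neutrophils, -1.14 ± 0.29, was lost without IL1b library 1 (0.0688). NK cells fell by -2.15 ± 0.46 with TNFa. Of the windows of its exons, 16.5% occur in other genes.

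Ndrg1, a stress and hypoxia gene, fell alongside Bnip3 with TNFa in monocytes, from 44.3 to 98.2 CPM to 16.3, 6.48 and 12.5 (-2.66 ± 0.34), in neutrophils (-1.47 ± 0.24) and in NK cells (-2.21 ± 0.54). In CD8+ dendritic cells it rose by 1.71 ± 0.41, a call lost without TNFa library 2 (0.0525). Its dependence on cell type gave an adjusted p of 7.18e-08. Egln3, an oxygen-sensing hydroxylase and itself a HIF target, was lowered by IL1b in peritoneal macrophages, from 18.0, 24.2, 25.4, 16.6 and 26.1 CPM to 5.46, 4.99 and 6.15 (-1.99 ± 0.22, 5.8e-07). It was raised by IL1b in neutrophils, from 21.7 to 48.7 CPM to 117, 286 and 220 (2.55 ± 0.36, 5.32e-05). The groups did not overlap in either type, and the dependence on cell type had an adjusted p of 0.00581.

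Adm, the vessel-dilating peptide adrenomedullin, was near absent in peritoneal macrophages with PBS (1 count in 5 libraries) and present with IL1b (10.1, 12.6 and 13.5 CPM) and TNFa (15.6, 9.09 and 21.9 CPM). Its count ratio was 433 with IL1b (counting interval 76.8 to 1.72e+04) and 551 with TNFa (98.1 to 2.19e+04). The interval again leaves out the spread between libraries, and Adm passed the filter on low counts only through the IL1b and TNFa libraries. No IL6 library had a count. Ankrd37, a HIF target of little known function, fell in plasmacytoid dendritic cells with TNFa, from 1.99 to 8.25 CPM to 0.789, 0.448 and 0.655 (-3.00 ± 0.71, 0.00816). P4ha1, a collagen prolyl hydroxylase subunit, was lowered by IL1b in red pulp macrophages and by TNFa in CD8+ dendritic cells and NK cells. The change in NK cells was -0.87 ± 0.24, lost without TNFa library 1 or 2 (0.0631).

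Set directly against each other within a cell type, the cytokines differed for the members in 37 of 397 tests of IL1b against TNFa (9.32%, against 4.5% of tests of all genes). IL6 and TNFa differed in 73 of 427 (17.1% against 10.6%), and IL1b and IL6 in 49 of 397 (12.3% against 5.2%). In neutrophils IL1b and TNFa differed for 11 of 29 members and for 2419 of all 11201 genes tested. IL1b exceeded TNFa for Slc2a1, Slc2a3, Hk2, Hk3, Pfkp, Pfkfb4, Pygl, Egln3, Bnip3 and Ndrg1 and was below it for Slc2a6. The largest of these were Hk2 (2.46 ± 0.37, adjusted p = 0.000103) and Egln3 (2.38 ± 0.43, 0.000585). In red pulp macrophages the single difference, of 33 members tested, was Pfkfb3 (-2.19 ± 0.35), where 381 of 13185 genes differed.

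Over all cell types together, the response depended on cell type for 22 of 34 members with IL1b (22.9% of all genes tested), 2 with IL6 (6.86%) and 22 with TNFa (36.3%). The 2 with IL6 were Pfkp (adjusted p = 0.000187) and Pdk3 (0.000109). For Hk1 and Hk2 with both cytokines, and for Gpi1, Gapdh, Eno1 and Ndrg1 with TNFa, this went with calls in opposite directions in different types. With IL1b the same held for Slc2a3 (3.29e-06), Gpi1 (0.00043), Aldoa (1.07e-05), Slc16a3 and Egln3. All comparisons of a cell type share its PBS libraries.

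The second experiment asked how the response to TNFa develops over a day. In peritoneal macrophages TNFa raised 11 and lowered 6 of 32 tested members at 2 h, 16 and 3 at 4 h, 24 and 2 at 8 h and 13 and 1 at 24 h. All genes raised and lowered were 18.1% and 18.1% at 2 h, 18.7% and 16.9% at 4 h, 15.6% and 12.8% at 8 h and 3.81% and 2.86% at 24 h. The members' median log2 change went from -0.08 at 2 h to 0.70, 1.20 and 0.57, while that of all genes stayed at -0.06, -0.02, -0.02 and -0.01. So the members' median was above PBS at 8 h and close to that of all genes at 2 h. The count at 2 h was 11 of 17 without PBS library 1 or without TNFa library 2. At 24 h the 14 calls became 4 without PBS library 1 or 2 and 6 without TNFa library 1.

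In Ly6C+ monocytes TNFa raised 10 and lowered 8 of 31 members at 2 h, 16 and 7 at 4 h, 19 and 5 at 8 h and 6 and 2 at 24 h. Of all genes, 19.7% and 20.6% were raised and lowered at 2 h, 15.9% and 16.6% at 4 h, 11.5% and 10.5% at 8 h and 2.74% and 1.72% at 24 h. Medians of the members were -0.04, 0.67, 1.46 and 0.62, and those of all genes -0.10, -0.03, -0.0007 and -0.02. With 2 libraries per group, single libraries mattered. The 23 calls at 4 h became 11 without PBS library 1 or 2, 12 without TNFa library 1 and 15 without TNFa library 2. The 24 calls at 8 h became 15 without either PBS library, and the 8 at 24 h became 1, 0 and 1 without PBS library 1, PBS library 2 or TNFa library 1.

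Marker sums also moved over this time. In monocytes the red pulp macrophage list summed to 489 and 507.3 CPM with PBS, 5261 and 6626 at 2 h and 2447 and 5267 at 8 h. The monocyte list in these cells went from 11803 and 12664 CPM with PBS to 8051 and 8697 at 8 h. In peritoneal macrophages the list of their own markers went from 20640 and 20922 CPM with PBS to 12337 and 13965 at 8 h. Neutrophil markers at 2 h summed to 1623 and 1712 CPM in monocytes, against 557.2 and 575.3 with PBS, and to 483 and 543.7 in macrophages, against 257.8 and 261.5. The part of these shifts in the members' course was not tested.

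**Figure D4:**
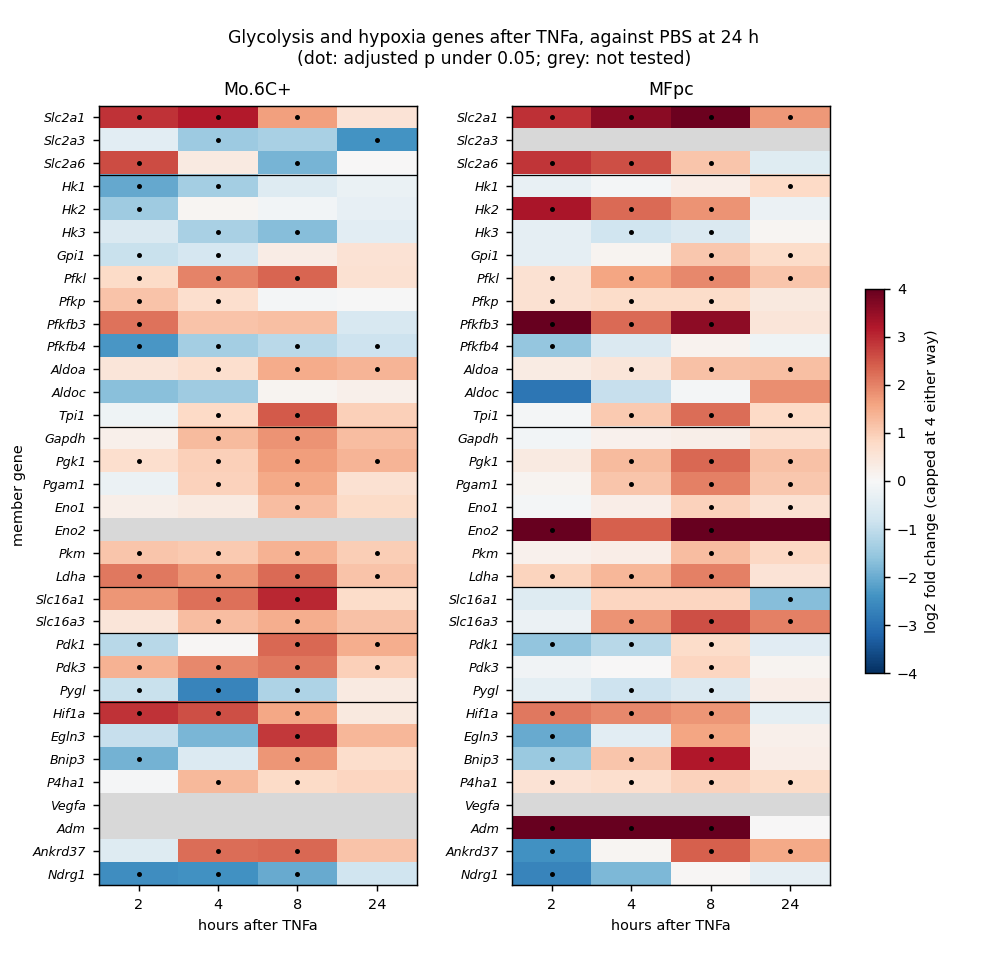
Log2 fold change of each member against PBS at 24 h in Ly6C+ monocytes (left) and peritoneal macrophages (right) at 2, 4, 8 and 24 h of TNFa, with a dot where the adjusted p was under 0.05 and grey where not tested. Slc2a6 and Hif1a start high and decline, while Tpi1 and Pgam1 are near 0 at 2 h and highest at 8 h.

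Slc2a6 and Hif1a were highest at 2 h in both types, and Hk2 and Adm in macrophages. In peritoneal macrophages Slc2a6 had 216 and 181 CPM with PBS, 1427 and 1452 at 2 h, 1214 and 1156 at 4 h, 381 and 482 at 8 h and 136 and 149 at 24 h. In monocytes it had 203 and 263 CPM with PBS, 1362 and 1490 at 2 h, 318 and 284 at 4 h, 72.3 and 56.2 at 8 h and 261 and 211 at 24 h. The monocyte libraries at 8 h lay below PBS (-1.86 ± 0.23) while those of macrophages lay above it (1.12 ± 0.17), and this difference between the types had an adjusted p of 3.79e-06. From 2 to 8 h Slc2a6 fell by 4.47 ± 0.25 in monocytes (adjusted p = 8.23e-07) and by 1.74 ± 0.17 in macrophages on the log2 scale (1.29e-05).

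Hif1a in monocytes went from 138 and 158 CPM with PBS to 1126 and 1082 at 2 h, 934 and 836 at 4 h, 266 and 589 at 8 h and 197 and 188 at 24 h. In macrophages it was at 109 and 92.4 CPM with PBS, 428 and 443 at 2 h and 82.5 and 69.3 at 24 h. Levels at 24 h were thus back within 1 log2 unit of PBS in both. Hk2 in macrophages rose from 29.9 and 34.5 CPM to 316 and 310 at 2 h (3.28 ± 0.35) and stood at 170 and 142 at 4 h and 68.7 and 154 at 8 h. Monocytes again moved the other way at 2 h (109 and 81.1 CPM with PBS, 19.7 and 51.1 with TNFa), with a difference between the types of -4.62 on the log2 scale (adjusted p = 4.49e-05). The monocyte change alone, -1.41 ± 0.36, was lost without PBS library 1 (0.0719). Adm had no count with PBS in macrophages and was at 26.6 and 25.1 CPM at 2 h, at least 124-fold higher against a floor of 3 counts over the group, then at least 20.5-fold at 4 h and at least 14.9-fold at 8 h. It passed the filter on low counts there only through TNFa libraries, and these folds leave out the spread between libraries.

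Glycolytic enzymes rose later. Tpi1 in macrophages had 179 and 174 CPM with PBS, 160 and 177 at 2 h, 390 and 334 at 4 h, 843 and 831 at 8 h and 354 and 256 at 24 h. In monocytes it had 172 and 161 CPM with PBS, 167 and 129 at 2 h, 292 and 292 at 4 h, 706 and 1108 at 8 h and 396 and 249 at 24 h. The 2 h libraries overlapped PBS in both types, and those at 8 h were the highest (2.25 ± 0.18 and 2.44 ± 0.28). From 2 to 8 h Tpi1 rose by 2.32 ± 0.18 and 2.62 ± 0.28. Pgk1 in macrophages was also highest at 8 h, with 33.3 and 32.8 CPM with PBS, 38.6 and 46.9 at 2 h and 151 and 177 at 8 h (2.31 ± 0.24), subject to the shared windows named above.

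Pfkl rose at 8 h by 1.91 ± 0.19 in macrophages and 2.33 ± 0.25 in monocytes. Ldha was raised at both ends of this interval, from 991 and 967 CPM with PBS to 1768 and 1848 at 2 h and 4363 and 3548 at 8 h in macrophages (0.88 ± 0.16 and 2.01 ± 0.17). Slc16a3, which exports lactate, was flat at 2 h in macrophages (83.7 and 61.1 CPM with PBS, 61.3 and 61.3 at 2 h), then 281 and 227 at 4 h, 374 and 482 at 8 h and 366 and 217 at 24 h. Its libraries from 4 h on were all above PBS (1.81 ± 0.25, 2.56 ± 0.26 and 2.01 ± 0.25). In macrophages Slc2a1 stayed high throughout, with 5.72 and 5.68 CPM with PBS, 44.2 and 41.4 at 2 h, 79.1 and 60.4 at 4 h, 72.3 and 101 at 8 h and 19.3 and 18.6 at 24 h (3.92 ± 0.25 at 8 h).

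Other members had their largest called change in this experiment. In monocytes at 8 h Aldoa was at 1726 to 2029 CPM, against 654 to 689 with PBS (1.48 ± 0.23, adjusted p = 0.000745), and Pkm, pyruvate kinase, at 2286 to 2904 against 975 to 995 (1.40 ± 0.25). Gapdh changed by 1.80 ± 0.42 and Eno1 by 1.23 ± 0.23, calls lost without PBS library 1 (0.0796 and 0.0515). Hk3 went the other way, from 137 to 145 CPM to 36.8 to 49.7 (-1.70 ± 0.27), with no overlap of the groups. Hk1 had fallen at 2 h (-2.04 ± 0.33). P4ha1 was raised at 4 h, from 72.1 to 77.4 CPM to 169 to 196 (1.29 ± 0.24). Slc16a1 rose from 2.20 and 1.20 CPM to 15.2 and 12.6 at 8 h (3.01 ± 0.73, lost in 2 of 4 fits with 1 library left out, adjusted p up to 0.103). Slc2a3 was lower at 24 h (2.53 and 1.76 CPM, against 11.4 and 11.2), a change of -2.38 ± 0.47 that was lost in 4 of 4 such fits (up to 0.116). In macrophages Pfkfb3 was at 760 and 766 CPM at 2 h, against 42.6 and 40.5 with PBS (4.20 ± 0.35), its largest change. Pgam1, phosphoglycerate mutase, stood at 26.6 and 25.6 CPM at 2 h, close to its 25.7 and 23.1 with PBS, and at 87.3 and 110 at 8 h (2.01 ± 0.24).

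The 4 members whose promoters are printed above beside that of Slc2a6 changed direction in macrophages. Bnip3 had 6.43 and 5.00 CPM with PBS, 2.44 and 1.54 at 2 h, 11.7 and 12.9 at 4 h, 44.5 and 61.8 at 8 h and 4.12 and 9.53 at 24 h. Ankrd37 had 6.57 and 6.62 CPM with PBS, 0.937 and 1.54 at 2 h, 7.30 and 6.76 at 4 h, 34.7 and 34.8 at 8 h and 20.2 and 17.3 at 24 h. Egln3 had 21.7 and 30.3 CPM with PBS, 4.87 and 8.15 at 2 h, 20.7 and 17.8 at 4 h, 56.2 and 101 at 8 h and 26.7 and 33.7 at 24 h. For all 3 the libraries at 2 h were below and those at 8 h above PBS. Pdk1 went from 91.6 and 84 CPM with PBS to 26.4 and 32.6 at 2 h, 33.1 and 48.7 at 4 h, 156 and 135 at 8 h and 54.7 and 72.3 at 24 h, with the same order of the groups at 2 and 8 h.

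Against PBS, the changes at 2 h were -2.41 ± 0.38 for Ankrd37, -2.01 ± 0.35 for Egln3, -1.57 ± 0.23 for Pdk1 and -1.49 ± 0.47 for Bnip3. At 8 h they were 2.39 ± 0.27, 1.59 ± 0.30, 0.73 ± 0.21 and 3.21 ± 0.37. The call for Bnip3 at 2 h was lost in 3 of 4 fits that left out 1 library (adjusted p up to 0.159), and that for Pdk1 at 8 h in 3 of 4 (0.147). The step from 2 to 8 h was 4.71 ± 0.43 for Bnip3 (adjusted p = 8.36e-06), 4.81 ± 0.35 for Ankrd37 (1.43e-06), 3.60 ± 0.35 for Egln3 (1.26e-05) and 2.31 ± 0.23 for Pdk1 (1.5e-05). Neither hour has PBS libraries, so an effect of the hour and one of TNFa cannot be told apart in this step. The step passed with any 1 library left out for these 4. They were picked for a fall at 2 h and a rise at 8 h in these same libraries. A rise from 2 to 8 h followed from that choice, so this step is no independent support.

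Monocytes made the same step for Pdk1 (20.5 and 18.9 CPM with PBS, 9.87 and 8.29 at 2 h, 84.5 and 111 at 8 h), at 3.43 ± 0.28 from 2 to 8 h (6.88e-06). Bnip3 there had 7.15 and 13.1 CPM with PBS, 4.05 and 1.58 at 2 h and 22.6 and 46.4 at 8 h, a step of 3.65 ± 0.68 (0.00161). Its calls against PBS at 2 h and 8 h were lost in 4 of 4 and 3 of 4 fits with 1 library left out (adjusted p up to 0.245 and 0.3). Egln3 changed by 3.76 ± 0.87 (0.00598) and Ankrd37 by 2.79 ± 0.80 (0.0175, and 0.0522 without TNFa library 2 at 8 h), both at low levels. In all, from 2 to 8 h, 20 members rose and 3 fell in macrophages (13.2% and 12.6% of all genes, medians 1.04 and 0.03), and 18 rose and 5 fell in monocytes (17.7% and 16% of all genes, medians 1.00 and 0.09). These counts too have no PBS at either hour.

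**Figure D5:**
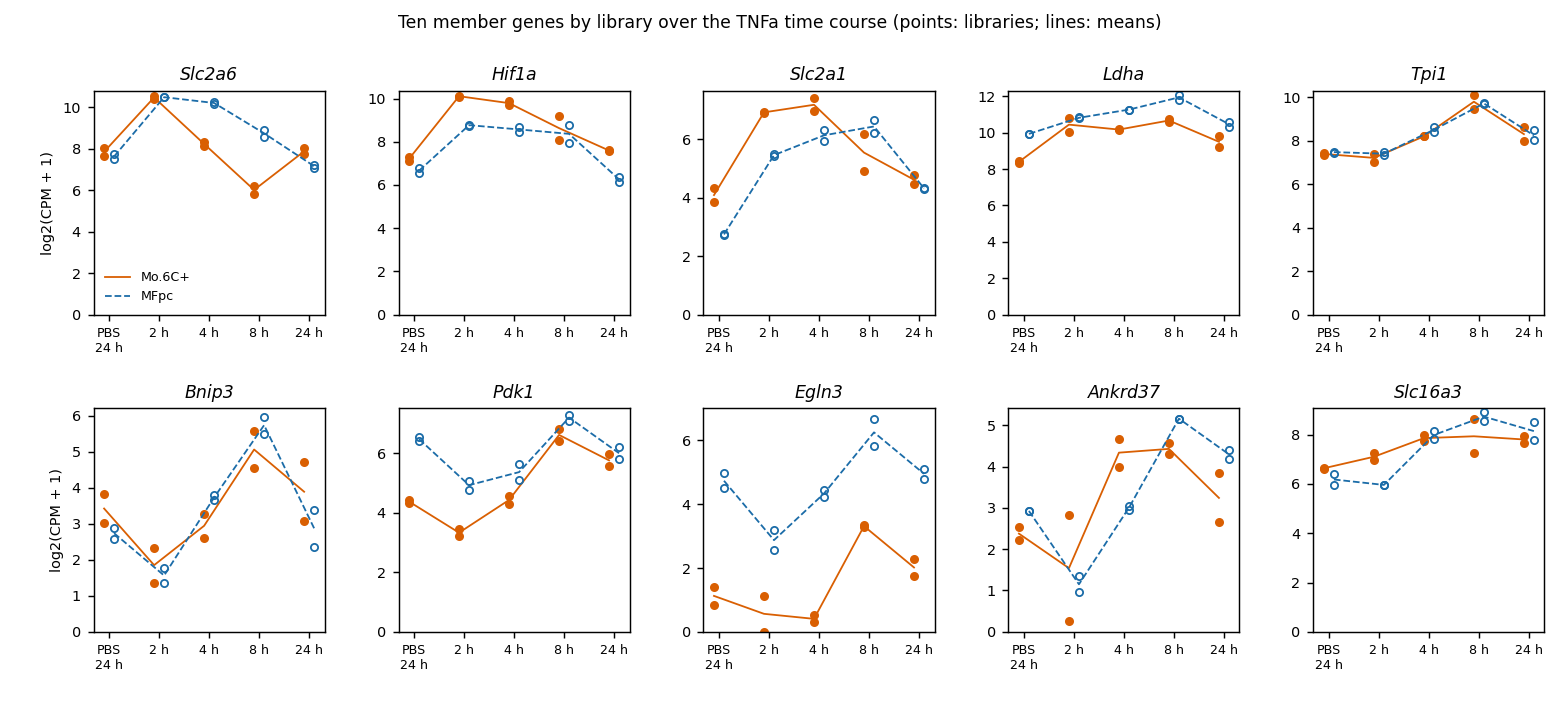
Levels of 10 members by library over the TNFa time course in Ly6C+ monocytes (filled, solid line) and peritoneal macrophages (open, dashed line), as log2(CPM + 1), with lines through the means and PBS at 24 h at the left. Slc2a6 and Hif1a peak at 2 h, Tpi1 at 8 h, and Bnip3 and Pdk1 dip below PBS at 2 h and peak at 8 h.

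Monocytes and macrophages differed in their course for 12 of 32 members tested over both types (18.5% of all genes). These were Slc2a1, Slc2a6, Hk1, Hk2, Pfkp, Pfkfb3, Slc16a3, Pdk1, Pdk3, Pygl, P4ha1 and Adm. Pdk3 rose in monocytes at each time (64.9 and 53.4 CPM with PBS, 169 and 144 at 2 h, 230 and 279 at 8 h) and in macrophages at 8 h only by its calls (29.0 and 27.2 CPM with PBS, 51.1 and 50.5 at 8 h). The test of its course gave an adjusted p of 0.000592. Pygl in monocytes fell from 443 and 550 CPM to 72.7 and 86.9 at 4 h (-2.64 ± 0.25), its lowest time, and had returned to 666 and 610 at 24 h.

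Endotoxin was given to ask how a bacterial signal compares, in monocytes alone. LPS raised 7 and lowered 3 of 29 tested members (10.2% and 8.38% of all genes, medians 0.13 and -0.06). Red pulp macrophage markers summed to 710.6 to 880.9 CPM with PBS and 1738 to 2794 with LPS, and neutrophil markers to 459.2 to 551.7 and 1056 to 1417, and their part in the response was not tested. The count of 10 became 5 without PBS library 1 or LPS library 2 and 6 without PBS library 3. Slc2a6 went from 157, 123 and 176 CPM to 724, 1288 and 1804 (3.06 ± 0.35, adjusted p = 0.000429), Hif1a from 132, 129 and 134 to 598, 1171 and 882 (2.74 ± 0.29, 0.000345) and Ldha from 376, 545 and 347 to 1134, 1088 and 1006 (1.35 ± 0.25, 0.00467). Pfkfb4 fell from 254, 202 and 246 CPM to 60.6, 104 and 46.0 (-1.74 ± 0.32, 0.00471). The groups did not overlap for these 4, and the 4 calls passed with any 1 library left out. Hk2 stood at 111, 118 and 108 CPM with PBS and 77.1, 68.1 and 75.5 with LPS, a difference that did not pass the test.

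Other genes of these pathways were taken from 5 lists. Of other HIF pathway genes, 6 rose and 1 fell of 18 tested in macrophages at 8 h of TNFa, where 15.6% and 12.8% of all genes did, and 3 rose and 1 fell of 15 in monocytes (11.5% and 10.5% of all genes). In macrophages Ero1l, an endoplasmic oxidase, rose by 2.49 ± 0.18, Ak4, a mitochondrial adenylate kinase, by 6.00 ± 0.83, and Ddit4, an inhibitor of mTORC1, by 4.66 ± 0.83. At the entry of pyruvate into the mitochondrion and in the TCA cycle, 8 of 22 rose and 2 fell in macrophages at 8 h, and 7 of 21 rose and 1 fell in monocytes. Idh3a, a subunit of isocitrate dehydrogenase, rose by 1.36 ± 0.25 and 2.43 ± 0.30, and Pdk2, a further pyruvate dehydrogenase kinase, fell in both (-1.45 ± 0.41 and -1.65 ± 0.40). None of the 7 pentose phosphate genes passed at 8 h in either type.

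Of glycogen genes other than Pygl, with TNFa in the screen, 6 of 13 fell and none rose in monocytes (24.4% and 24.3% of all genes), and 7 of 12 fell and 1 rose in peritoneal macrophages (26.7% and 26.6%). In neutrophils with IL1b 4 of 12 rose and none fell (12.9% and 9.44%), among them Gyg, the glycogen primer (3.10 ± 0.24, adjusted p = 5.27e-08), and Gys1, glycogen synthase (0.80 ± 0.22). At 8 h of TNFa Gys1 rose in both types (1.56 ± 0.34 in macrophages and 2.08 ± 0.47 in monocytes). Of other glycolysis enzymes, mostly forms of other tissues, none rose and 2 fell of 9 tested in macrophages at 8 h, and 1 rose and 1 fell of 10 in monocytes. The lists were written from general knowledge of the pathways, with earlier results of these data known.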

How the data were processed

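The authors deposited raw counts of reads per gene, made with STAR 2.7.3a, the mm10 genome and featureCounts per the submitters' processing notes. Whether the counting used strand or reads with several matches is not given in the sources used here. The members and gene lists were chosen with earlier results of these data known.

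Each cell type's libraries were fitted together in R 4.3.3 with edgeR 4.0.16 (TMM scaling, its filter on low counts, quasi-likelihood test, Benjamini-Hochberg adjustment over all genes tested, threshold 0.05). SE is the log2 change over the square root of F. Dependence on cell type was tested in one fit of all screen libraries, with the dispersion trend from 1 gene in 8. DESeq2 1.42.0 and limma 3.58.1 were also used, the first as an alternative test and the second as a library that edgeR needs. Named genes were the members called in most cell types per cytokine, the largest rises and falls per comparison where the higher mean reached 20 CPM, and each member's largest called change. A count leads where at least 5 members passed.

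Alternatives were other size factors, no filter, DESeq2, the replicate number as a block, only the 2 groups compared, leaving out each library, and leaving out libraries with markers of other cells, the last chosen after seeing the data. Recovery was checked on data simulated from these libraries, with 200 genes changed. A log2 change of 1 was recovered for 62.9% of such genes in the screen (macrophages, TNFa, 11801 genes). It was 26% in the time course (macrophages, 8 h, 11942 genes) and 8.79% with LPS (10525 genes). A log2 change of 2 was recovered for 92.9%, 84.5% and 66%. In the real comparisons 6448, 3515 and 2055 genes passed. The adjusted threshold then allows a larger p, so these shares are not those of the real data. No 2 libraries of a group were identical.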

Additional observations from a re-analysis of the deposited data

Results flagged for a closer look

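In 3 of 81 combinations of a member and a cell type, 1 PBS library stood far from the other 3 or 4, where chance gives about 1 in 20. Slc2a3 in neutrophils was at 708.6 CPM in library 5 and 890.7 to 940.1 in the others. Pgk1 in peritoneal macrophages was at 30.04 CPM in library 1 and 40.84 to 43.96 in the others. Pkm in Ly6C+ monocytes was at 1377 CPM in library 1 and 1086 to 1156 in the others.

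Some members were raised in some cell types, lowered in others and passed a test of dependence on cell type. Pygl with IL1b had calls in both directions and did not pass it (0.0533). With IL1b those that passed were Slc2a3 (raised in 1 and lowered in 3 types, adjusted p = 3.29e-06 by edgeR), Hk1 (1 and 2, 0.0209), Hk2 (1 and 1, 0.000264), Gpi1 (1 and 1, 0.00043), Aldoa (1 and 1, 1.07e-05), Slc16a3 (2 and 1, 0.00246) and Egln3 (1 and 1, 0.00581). With TNFa they were Hk1 (1 and 2, 0.000118), Hk2 (2 and 2, 3.36e-10), Gpi1 (1 and 5, 7.38e-15), Gapdh (1 and 1, 0.000215), Eno1 (1 and 2, 0.000925) and Ndrg1 (1 and 3, 7.18e-08). In the time course, monocytes and macrophages had opposite calls for Hk2 at 2 h (4.49e-05) and Slc2a6 at 8 h (3.79e-06).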

How the results depend on the processing

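No call of a member changed direction under any alternative run. Of 194 calls in the screen, 141 passed in every fit that left out 1 library, as did 121 of 195 in the time course and 4 of 10 with LPS. The 195 include 23 calls of 8 h against 2 h in macrophages and 23 in monocytes, and the others are against PBS. Of the screen calls, 191 passed with DESeq2's size factors, 183 with no filter, 192 with DESeq2 and 186 with only the 2 groups compared. In the time course these were 192, 189 and 191, and 171 of 193. Counts over cell types moved by over 1.5 times in these cases. For IL6, 11 raised became 18 with no filter, and 4 lowered became 8 with no filter, 12 with DESeq2 and 8 with only the 2 groups compared. In monocytes at 24 h, 8 became 13 with DESeq2 and 15 with only the 2 groups. In macrophages at 24 h 14 became 7 with only the 2 groups, and for 8 against 2 h in monocytes 23 became 14. The 12 members whose course differed between the types became 20 with no filter. Without the libraries with markers of other cells, CD8+ dendritic cells with TNFa went from 10 to 6 and red pulp macrophages with IL1b from 11 to 5. The cause of these moves was not tested.

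With 1 library left out, the counts ranged from 11 to 14 in macrophages at 2 h and 4 to 15 at 24 h, and in monocytes from 11 to 15 at 4 h, 15 to 22 at 8 h and 0 to 7 at 24 h. They ranged from 6 to 10 in CD8+ dendritic cells with TNFa, 6 to 12 in red pulp macrophages with IL1b, 2 to 6 in neutrophils with IL6, 1 to 5 for members lowered by IL6 over all types and 5 to 10 with LPS. For the IL6 count, the neutrophil libraries 1, 2 and 3 with IL6 gave 2, 1 and 2. Where a group of 2 lost a library, the lone library was assumed to vary like the other groups.

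By the medians below, the replicate numbers did not pair the libraries. Deviations of same-numbered libraries had median correlations of -0.0557 to 0.0348 in the screen fits, 0.0045 and 0.0018 in the time course and -0.1451 with LPS. Single pairs spread most widely in CD8 T cells, from -0.2825 to 0.3279. Whether some numbers share a mouse or a batch was not tested. With the number as a replicate block, 155 of 194 screen calls, 192 of 195 time course calls and 9 of 10 LPS calls passed. The block moved members raised by IL6 from 11 to 7, those lowered from 4 to 0, neutrophils with IL6 from 6 to 2 and CD8+ dendritic cells with TNFa from 10 to 6. Depth and 2 to 3 libraries per group limit small changes at low levels, such as Egln3 and Ankrd37 in monocytes. A change that missed the threshold is not shown to be absent.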
